A study of Mus musculus with 12 samples.

Results

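The genes examined here encode the nuclear-encoded subunits of oxidative phosphorylation (OXPHOS) in mouse embryonic stem cells (ESCs) after knockdown or overexpression of YAP, the transcriptional coactivator of the Hippo pathway that works with TEAD DNA-binding proteins. Membership went by symbol, and the list was chosen with earlier results of these data known. It holds genes whose name begins with Ndufa, Ndufb, Ndufc, Ndufs, Ndufv, Uqcr, Cox4 to Cox8 or Atp5, together with Sdha, Sdhb, Sdhc and Sdhd. Assembly factors named Ndufaf and the paralog Ndufa4l2 were left out. Of 24480 genes in the files, 84 matched, and 80 of these had at least 10 expected counts on average over the 12 libraries. By symbol, 37 belong to complex I, 4 to complex II, 8 to complex III, 14 to complex IV and 17 to complex V. The other 4 are tissue isoforms of complex IV with mean expected counts of 7.92 (Cox4i2), 0.5 (Cox6a2), 0.5 (Cox8b) and 2.83 (Cox8c), and they were not examined further. All 80 passed the filter on low counts in both experiments.

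All cells were E14Tg2a, a feeder-free mouse ESC line kept in serum and LIF, and every group was transiently transfected, by lipofection per the study's methods, and left undifferentiated. In the knockdown experiment, cells received Stealth siRNAs against YAP (YAP KD) or scrambled siRNAs (CTR KD). The overexpression cells took up a plasmid encoding mouse YAP under the CAG promoter (YAP OE) or a control plasmid (CTR OE), which encodes GFP according to the labels and is called an empty vector in the study's text. Each of the 4 groups has 3 libraries from independent experiments, and the knockdown and the overexpression share no control library. Cells were not sorted for uptake of siRNA or plasmid, so each value is an average over transfected and untransfected cells of 1 line. In such bulk RNA, fewer cells of a type and less RNA per cell cannot be told apart.

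OXPHOS couples the oxidation of NADH and succinate to ATP synthesis in the inner mitochondrial membrane. Complex I (NADH dehydrogenase) and complex II (succinate dehydrogenase) pass electrons to ubiquinone, complex III passes them to cytochrome c, complex IV (cytochrome c oxidase) reduces oxygen, and complex V (ATP synthase) uses the proton gradient built on the way. Most subunits are encoded in the nucleus and imported, and a small set is encoded by mitochondrial DNA, so each complex other than II depends on transcripts from both genomes. Mouse ESCs in serum and LIF are known to use both glycolysis and respiration.

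Total expected counts ran from 42926256 to 57240703 per library, and replicate libraries differed by far more than counting error, with a chi-square per degree of freedom of at least 3.54 in every pair. Yap1, the targeted gene, lay at 116 to 134 CPM (counts scaled to library size, TMM-normalized) in the CTR KD libraries and at 54.8 to 58.2 in the YAP KD libraries. It lay at 131 to 134 CPM in CTR OE and 245 to 278 in YAP OE. Within each experiment the YAP and CTR libraries thus matched their labels. CTR KD and CTR OE overlap in Yap1, which does not tell them apart. The 8 markers of undifferentiated ESCs (Pou5f1, Nanog, Sox2 and others) were all tested, and none passed the test in either experiment. Their CPM summed to 5858 to 6058 in CTR KD and 5548 to 5884 in YAP KD, ranges that overlap only slightly. In the overexpression the sums were 5761 to 5852 in CTR OE and 5636 to 6030 in YAP OE. All 8 primitive endoderm markers were tested in the overexpression, 5 above 0 and 3 below, and only Dab2 was called higher. Their summed level was 150.5 to 155.2 CPM in CTR OE and 159 to 165.3 in YAP OE. Of 8 trophoblast markers 6 were tested there, all 6 above 0, and Cdx2 and Gata3 were called higher. The trophoblast markers summed to 14.1 to 15.4 CPM in CTR OE and 17.5 to 21.4 in YAP OE. In the knockdown, 7 primitive endoderm, 4 trophoblast and 5 fibroblast markers had enough counts to be tested and none of these passed, while Cdx2 and Gata3 were not tested there. The 8 fibroblast markers summed to 2.5 to 2.8 CPM in CTR KD and, without overlap, 3.1 to 3.8 in YAP KD, and to 3.4 to 3.8 CPM in CTR OE and 3.6 to 4 in YAP OE. The part of these markers in the results below was not tested.

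The 80 subunit genes took 0.97 to 1.06% of all counts in each library. Levels of different genes were compared as CPM per kilobase of effective transcript length, averaged over the 12 libraries. The highest level was that of Atp5b, the catalytic beta subunit of ATP synthase, at 1190 CPM per kb, with a range of 1150 to 1260. Cox4i1, the common isoform of cytochrome c oxidase subunit 4, followed at 778 and Cox7c at 636. The median was 84 CPM per kb over complex I, 83 over complex II, 185 over complex III, 282 over complex IV and 259 over complex V. The highest complex I gene was Ndufa4 (322), a protein first assigned to complex I and now placed in complex IV, and Ndufa7 had the same rounded level (322). The lowest 3 were Cox7b2 (1.47), an isoform known from testis, Ndufs5 (2.27) and Atp5s (2.33). The low level of Ndufs5 went with a sharing of reads described further on. Of the 79 neighbouring pairs in this order, 71 had ranges over the 12 libraries that overlap, so the order is firm between distant genes and not between most neighbours.

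**Figure D1:**
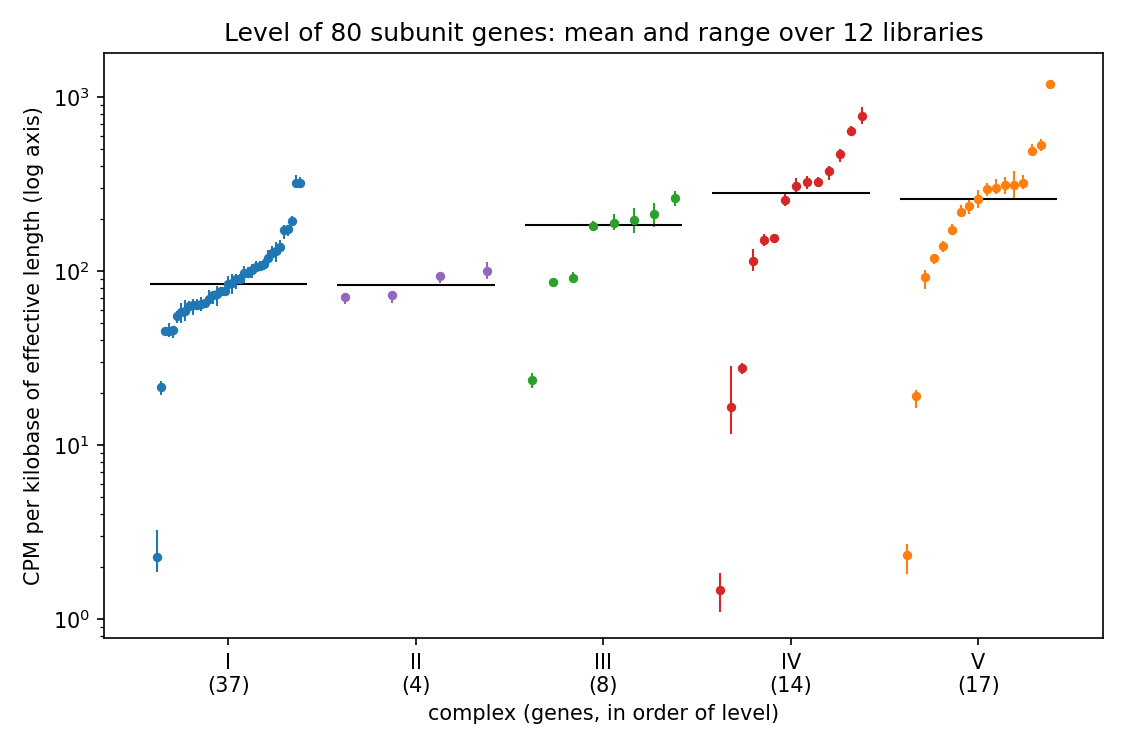
Level of the 80 subunit genes in CPM per kilobase of effective length (log axis), sorted within complexes I to V. Points are means over 12 libraries, vertical lines run from the lowest to the highest library, and horizontal lines are medians, from 83 in complex II to 282 in complex IV. Atp5b at 1190 is the highest point, and 1 gene each in complexes I, IV and V lies under 3.

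A small set of these genes was upregulated in YAP KD, and none was called lower. In the knockdown, 7 of the 80 genes were upregulated at an adjusted p under 0.05 (edgeR quasi-likelihood F test, Benjamini-Hochberg over 14606 genes), beside 2.71% of all genes tested called higher. They were Cox7a1, Cox7a2, Uqcr11, Uqcrh, Atp5l, Atp5j2 and Ndufv3. The count called lower was 0, beside 2.78% of all genes. At an unadjusted p under 0.05 the count was 23 higher, beside 9.82% of all genes, and 0 lower, also beside 9.82%. DESeq2 and limma-voom called 6 and 7, and edgeR with the replicate number as a block called 1. The log2 fold change was above 0 for 64 of 80 (80%), beside 51.8% of all genes. The 3 YAP KD libraries all lay above the 3 CTR KD libraries for 24 genes (30%), beside 13.2% of all genes, and all below for 3 (3.75%), beside 12.7%. The median log2 fold change over the 80 was 0.058, beside 0.006 over all genes tested.

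Apart from Cox7a1, these calls rested on small differences and most were lost when 1 of several libraries was left out. Without CTR KD 3, YAP KD 1 or YAP KD 2 only the call of Cox7a1 was left each time, making 1, without YAP KD 3 there were 3, without CTR KD 1 there were 5 and without CTR KD 2 there were 7. The median over the 80 stayed between 0.034 and 0.068 in these fits. Set against the mean of the CTR KD libraries on the log2 scale, the median over the members was 0.1 in YAP KD 1, 0.044 in YAP KD 2 and 0.043 in YAP KD 3, and from -0.025 to 0.025 in the CTR KD libraries, so all 3 YAP KD libraries lay above all 3 controls.

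Cox7a1, the isoform of cytochrome c oxidase subunit 7A known from heart and skeletal muscle, showed the largest change. It held 2.54, 3.04 and 2.99 CPM in CTR KD and 5.34, 5.20 and 4.70 CPM in YAP KD. The groups do not overlap, and the mean went from 2.86 ± 0.276 to 5.08 ± 0.337 CPM (SD, n = 3), a log2 fold change of 0.82 (standard error 0.103, adjusted p = 0.00241 by edgeR). This call held in all 12 alternative analyses and in all 6 fits with 1 library left out, with log2 fold changes from 0.74 to 0.88 and adjusted p from 7.18e-05 to 0.0326 in the edgeR fits, 2.57e-06 in DESeq2 and 0.00303 in limma-voom. In the overexpression it held 2.40, 2.28 and 2.38 CPM in CTR OE and 2.47, 2.34 and 2.20 CPM in YAP OE, and the groups overlap, a log2 fold change of -0.012 (standard error 0.113, adjusted p = 0.984 by edgeR). The gene lies at chr7:30184171-30186030 (GRCm38.p6, the same build as mm10) on the plus strand and overlaps no other RefSeq gene. Its mean level, 16.6 CPM per kb, was the fourth lowest of the 80. Because it was the member with the clearest change, the 250 bases before its RefSeq start site are shown, at chr7:30183921-30184170, in lower case throughout since none of the motifs for NRF1, GABPA or YY1 given further on is in them.
Cox7a1 upstream: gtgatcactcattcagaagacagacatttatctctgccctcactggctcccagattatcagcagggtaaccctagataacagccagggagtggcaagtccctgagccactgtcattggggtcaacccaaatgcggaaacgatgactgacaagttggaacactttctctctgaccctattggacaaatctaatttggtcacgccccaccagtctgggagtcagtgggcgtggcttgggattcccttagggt

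**Figure D2:**
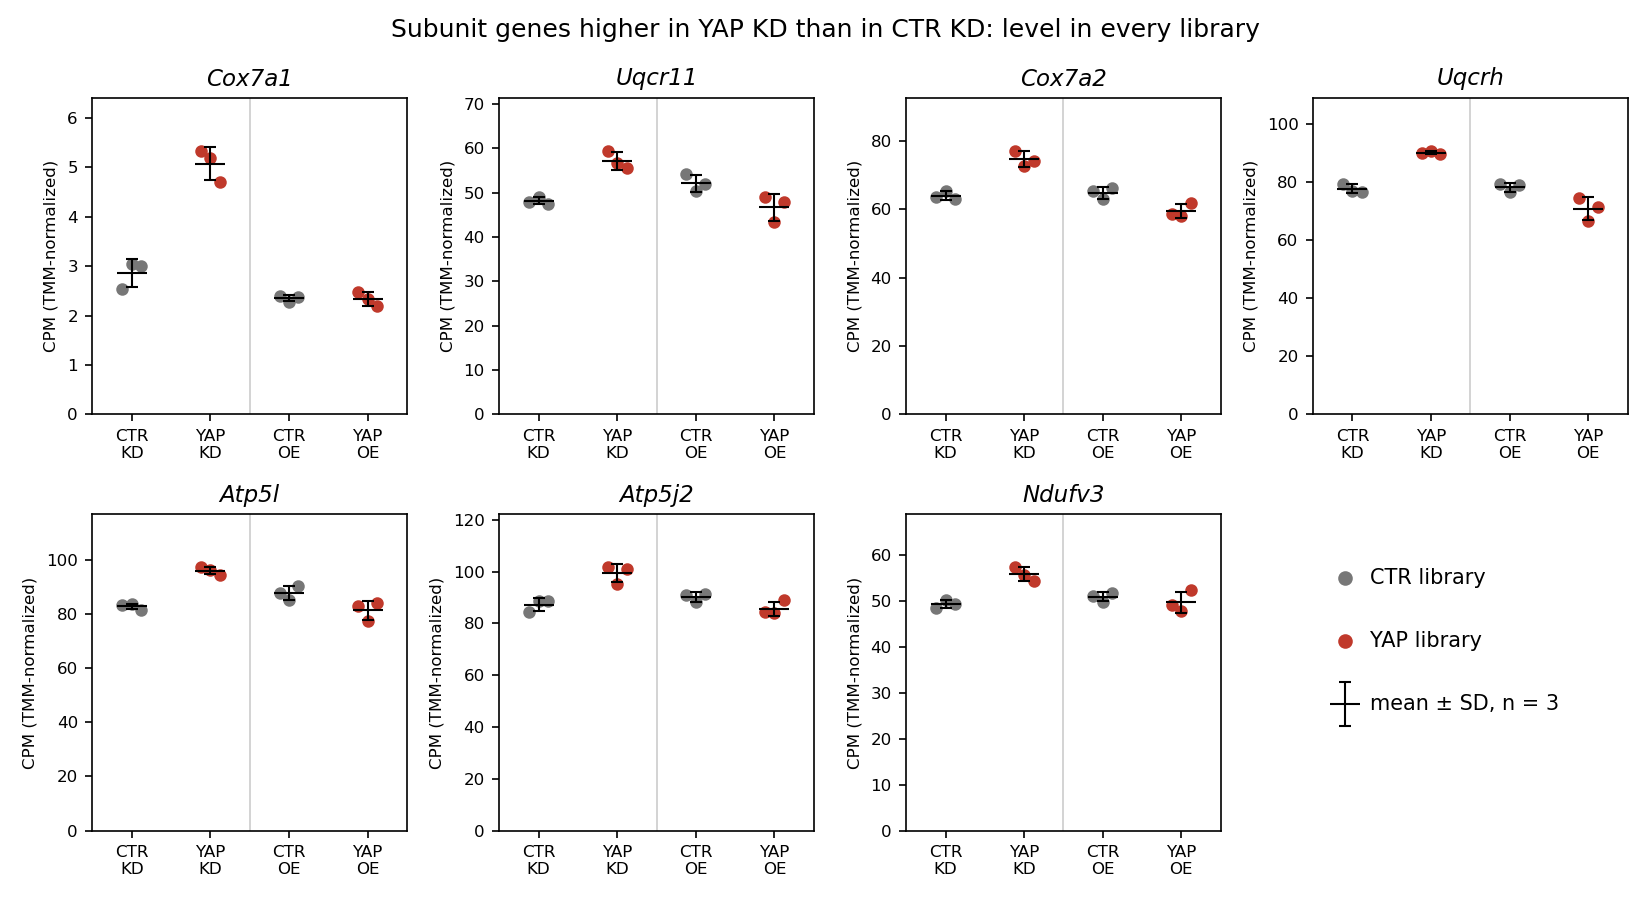
TMM-normalized CPM of the 7 genes called higher in YAP KD, in each of the 12 libraries (grey, CTR; red, YAP; bars, mean ± SD, n = 3), on axes that start at 0. In each panel the 3 YAP KD points lie above the 3 CTR KD points, and Cox7a1 shows the widest gap, 2.54 to 3.04 against 4.70 to 5.34 CPM.

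The other 6 called genes encode small accessory subunits of complexes III, IV, V and I, each with a log2 fold change of 0.25 or less. In complex III, Uqcr11, a small accessory subunit at chr10:80402997-80406821, held 48.0, 49.1 and 47.5 CPM in CTR KD and 59.5, 56.6 and 55.6 CPM in YAP KD. Its log2 fold change was 0.25 (standard error 0.0425, adjusted p = 0.0101 by edgeR), and the groups do not overlap. Uqcrh, the hinge protein that helps join cytochrome c1 and cytochrome c, lies at chr4:116066965-116075070 and overlaps the RefSeq pseudogene Gm12854. It held 79.3, 76.8 and 76.5 CPM in CTR KD and 89.9, 90.7 and 89.6 CPM in YAP KD, for a log2 fold change of 0.22 (standard error 0.038, adjusted p = 0.0113 by edgeR). All 3 YAP KD values lie within 2 CPM of each other and above the controls. In complex IV, Cox7a2, the isoform of subunit 7A found in most tissues, lies at chr9:79755241-79771422 and overlaps Tmem30a and the pseudogene Gm51685. It held 63.5, 65.4 and 63.0 CPM in CTR KD and 77.1, 72.6 and 74.0 CPM in YAP KD, for a log2 fold change of 0.22 (standard error 0.0414, adjusted p = 0.015 by edgeR). Both subunit 7A isoforms were thus higher in YAP KD, and per kilobase Cox7a2 (114 CPM per kb over all libraries) stood well above Cox7a1.

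In complex V, Atp5l (subunit g) and Atp5j2 (subunit f) belong to the membrane part of ATP synthase. Atp5l, at chr9:44913248-44920742 and overlapping the lncRNA gene Gm30934, held 83.2, 83.7 and 81.6 CPM in CTR KD and 97.4, 96.2 and 94.5 CPM in YAP KD. Its log2 fold change was 0.21 (standard error 0.0377, adjusted p = 0.0115 by edgeR), and the groups are separated by over 10 CPM. Atp5j2, at chr5:145183704-145191541, held 84.4, 88.6 and 88.8 CPM in CTR KD and 102, 95.4 and 101 CPM in YAP KD, for a log2 fold change of 0.19 (standard error 0.0436, adjusted p = 0.0373 by edgeR). In complex I the only call was Ndufv3, an accessory subunit of the NADH-oxidizing module at chr17:31520115-31531326. It held 48.5, 50.2 and 49.4 CPM in CTR KD and 57.4, 55.6 and 54.4 CPM in YAP KD, for a log2 fold change of 0.18 (standard error 0.0409, adjusted p = 0.0373 by edgeR). Ndufv3 was the least firm of the 7, losing its call in 5 of 12 alternative analyses and in 5 of 6 fits without 1 library. Whether RNA of the overlapping genes was counted with Cox7a2, Uqcrh or Atp5l was not tested, and the strand setting of the counting is not given in the sources used here.

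Short sequence motifs were looked up in the promoters of these genes, since nuclear OXPHOS genes are known as targets of NRF1, GABPA (NRF2) and YY1. RefSeq promoter windows of 300 bases (250 before and 50 after the start site, GRCm38.p6) were at hand for 69 of the 80 genes and for 27025 genes in all, and both strands were read. The 27025 were not limited to genes with enough counts to be tested, so their shares are not those of expressed genes. The NRF1 motif CGCATGCG was in 9 of the 69 (13.0%), beside 2.07% of all genes. GABPA (CCGGAAGT) was in 5 (7.25%), beside 4.31%, and YY1 (AAGATGGCG) in 8 (11.6%), beside 1.64%. The TEAD motif GGAATG was in 7 (10.1%), beside 16.6% of all genes, and the SP motif GGGCGG in 29 (42%), beside 38.2%. None of these words contains another, and the NRF1 word reads the same on both strands. Among the 7 genes called in YAP KD, NRF1 was in Atp5l and Uqcr11, GABPA in Uqcr11 and Uqcrh, YY1 and TEAD in Atp5j2, and SP in Cox7a2 and Ndufv3. The matches for NRF1, GABPA and YY1 in these genes are shown because Uqcr11, Uqcrh, Atp5l and Atp5j2 differed in the same direction, as windows of 30 bases with the match in capitals. They lie at chr10:80406808-80406837 and chr10:80406869-80406898 (Uqcr11), chr4:116075063-116075092 (Uqcrh, where GABPA is read as its reverse complement), chr9:44920963-44920992 (Atp5l) and chr5:145191499-145191528 (Atp5j2), all on the minus strand.
Uqcr11, NRF1: gatcgccttcaCGCATGCGctatacgtctg
Uqcr11, GABPA: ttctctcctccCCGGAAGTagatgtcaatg
Uqcrh, GABPA: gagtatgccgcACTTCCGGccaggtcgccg
Atp5l, NRF1: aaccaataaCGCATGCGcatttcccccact
Atp5j2, YY1: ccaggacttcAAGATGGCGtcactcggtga
A match of these letters is a description of the window and not a site.

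The direction in the knockdown was shared by complexes I, III, IV and V, with different medians. The median log2 fold change was 0.105 in complex III, 0.072 in complex V, 0.071 in complex IV, 0.044 in complex I and 0.017 in complex II. It was above 0 for 31 of 37 genes in complex I, 2 of 4 in complex II, 6 of 8 in complex III, 11 of 14 in complex IV and 14 of 17 in complex V. The calls fell 1 in complex I, 2 each in complexes III, IV and V, and 0 in complex II. At the lower end, Atp5s (Dmac2l in RefSeq, known as coupling factor B) held 3.46, 2.72 and 2.85 CPM in CTR KD and 2.34, 2.70 and 2.61 CPM in YAP KD. The YAP KD values lie below the controls, but the difference did not pass the test (log2 fold change -0.23, standard error 0.123, adjusted p = 0.345 by edgeR). Cox6b2, the testis isoform of subunit 6B, had a log2 fold change of -0.12 (standard error 0.0596, adjusted p = 0.334 by edgeR), with 10.2, 9.84 and 9.77 CPM in CTR KD and 9.38, 9.17 and 8.97 CPM in YAP KD. Uqcrfs1, the Rieske iron-sulfur protein of complex III, had one of -0.075 (standard error 0.0402, adjusted p = 0.354 by edgeR), with 106, 109 and 111 CPM in CTR KD and 104, 101 and 106 CPM in YAP KD. Groups did not overlap for any of these 3 either, and they are the 3 genes counted above as lying lower in YAP KD.

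Catalytic and other widely studied subunits mostly differed little. In complex I, Ndufs1, the largest iron-sulfur subunit, held 172, 166 and 173 CPM in CTR KD and 176, 174 and 168 CPM in YAP KD (log2 fold change 0.019, standard error 0.0405, adjusted p = 0.859 by edgeR). Ndufv1, which binds NADH, held 148, 156 and 146 CPM in CTR KD and 163, 151 and 146 CPM in YAP KD (log2 fold change 0.029, standard error 0.0501, adjusted p = 0.814 by edgeR). For both, the groups overlap. Ndufs7, a core iron-sulfur subunit near the ubiquinone site, had a log2 fold change of 0.075 (standard error 0.0469, adjusted p = 0.429 by edgeR). It held 35.2, 36.2 and 37.8 CPM in CTR KD and 39.9, 37.5 and 37.8 CPM in YAP KD, and its groups overlap. In complex II, Sdha, the flavoprotein that oxidizes succinate, held 246, 260.1 and 246 CPM in CTR KD and 256, 241 and 229 CPM in YAP KD (log2 fold change -0.053, standard error 0.0491, adjusted p = 0.631 by edgeR). Sdhb, its iron-sulfur partner, held 85.9, 87.5 and 87.5 CPM in CTR KD and 100.2, 91.1 and 92.0 CPM in YAP KD (log2 fold change 0.12, standard error 0.0462, adjusted p = 0.189 by edgeR). Here all 3 YAP KD values lie above the controls, though without an adjusted call, so the catalytic subunits of complex II had log2 fold changes of opposite sign, neither past the test. Sdhc and Sdhd, the membrane anchors, had log2 fold changes of -0.011 and 0.045.

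Uqcrc1, a core protein of complex III, held 266, 282 and 259 CPM in CTR KD and 274, 264 and 252 CPM in YAP KD (log2 fold change -0.031, standard error 0.0486, adjusted p = 0.795 by edgeR). In complex IV, whose catalytic core is encoded by mitochondrial DNA, the accessory subunit Cox4i1 held 418, 457 and 440 CPM in CTR KD and 489, 463 and 465 CPM in YAP KD (log2 fold change 0.11, standard error 0.0459, adjusted p = 0.226 by edgeR). Its groups do not overlap, while those of Uqcrc1 do. Cox5a, a matrix-facing accessory subunit, held 163, 179.9 and 176 CPM in CTR KD and 172, 154 and 181 CPM in YAP KD (log2 fold change -0.033, standard error 0.0627, adjusted p = 0.835 by edgeR). In complex V, Atp5a1 and Atp5b are the alpha and beta subunits that form the catalytic head. Atp5a1 held 1088, 1108 and 1093 CPM in CTR KD and 1201, 1143 and 1159 CPM in YAP KD (log2 fold change 0.091, standard error 0.0384, adjusted p = 0.224 by edgeR), and Atp5b held 1993, 2115 and 1991 CPM in CTR KD and 2141, 2005 and 1990 CPM in YAP KD (log2 fold change 0.008, standard error 0.0459, adjusted p = 0.949 by edgeR). Among these catalytic and other subunits, Sdhb, Cox4i1 and Atp5a1 had groups that do not overlap, with YAP KD above, and Uqcrfs1, given above, lay below. None of them passed the adjusted threshold.

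**Figure D3:**
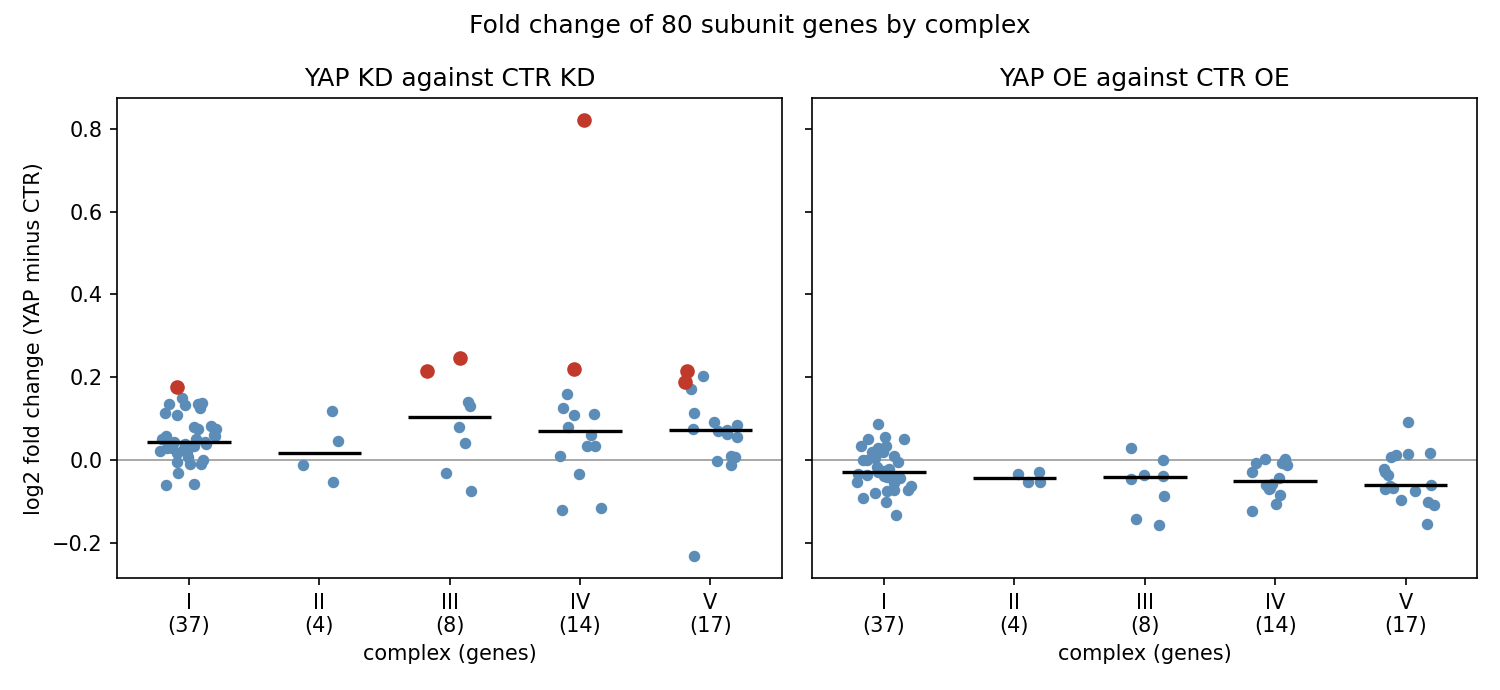
Log2 fold change (YAP minus CTR) of the 80 genes by complex, in the knockdown (left) and the overexpression (right). Horizontal lines are medians, red points are genes at an adjusted p under 0.05 in edgeR. The medians lie above 0 in all 5 complexes in the knockdown (0.017 to 0.105) and below 0 in all 5 in the overexpression (-0.029 to -0.061), where no point is red.

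In the overexpression, none of the 80 genes was called in either direction by edgeR over 14804 genes, beside 1.66% of all genes called higher and 0.473% called lower. DESeq2 and limma-voom also called 0. At an unadjusted p under 0.05, 1 gene was higher (Ndufs3), beside 7.55% of all genes, and 8 were lower, beside 5.59%. The log2 fold change was below 0 for 59 of 80 (73.8%), beside 51.3% of all genes. All 3 YAP OE libraries lay below the CTR OE libraries for 12 genes (15%), beside 7.8% of all genes, and above them for 1 (1.25%), beside 10.3%. The median log2 fold change was -0.036, beside -0.002 over all genes.

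The YAP OE libraries did not move alike. Set against the CTR OE mean, the median over the 80 genes was -0.065 in YAP OE 1 and -0.079 in YAP OE 2 but 0.033 in YAP OE 3, and from -0.007 to 0.02 in the controls. YAP OE 3 is also the deepest library and held 13.2% of its counts in small RNA entries, against 10.3 and 11.5% in YAP OE 1 and 2, and the part of these features in the medians was not tested. Without YAP OE 3 the median over the 80 was -0.07, with 27 genes at an unadjusted p under 0.05 and still 0 called. Without YAP OE 1 the median was -0.022 and without YAP OE 2 it was -0.014.

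The 3 lowest log2 fold changes were those of Uqcr11, Atp5sl and Uqcrh. Uqcr11 held 54.1, 50.3 and 52.1 CPM in CTR OE and 49.1, 43.3 and 47.8 CPM in YAP OE (log2 fold change -0.16, standard error 0.049, adjusted p = 0.136 by edgeR). Uqcrh held 79.2, 76.3 and 78.9 CPM in CTR OE and 74.2, 66.5 and 71.5 CPM in YAP OE (log2 fold change -0.14, standard error 0.0435, adjusted p = 0.126 by edgeR). Both are complex III genes that were called higher in YAP KD, and here their groups do not overlap, in the opposite order. Atp5sl, named Dmac2 in RefSeq and known as an assembly factor of the complex I membrane arm and not as an ATP synthase subunit, held 27.7, 26.7 and 26.7 CPM in CTR OE and 25.6, 22.6 and 24.6 CPM in YAP OE (log2 fold change -0.15, standard error 0.0511, adjusted p = 0.171 by edgeR). At the upper end, Atp5s held 3.10, 3.39 and 3.20 CPM in CTR OE and 3.27, 3.49 and 3.56 CPM in YAP OE (log2 fold change 0.092, standard error 0.0991, adjusted p = 0.774 by edgeR). Ndufs3, a core subunit of complex I, held 47.7, 47.4 and 45.8 CPM in CTR OE and 49.2, 49.2 and 51.1 CPM in YAP OE (log2 fold change 0.086, standard error 0.0396, adjusted p = 0.364 by edgeR). Ndufs3 was the gene whose 3 YAP OE libraries all lay higher. Ndufb11, an accessory subunit of the membrane arm, held 45.7, 46.8 and 44.4 CPM in CTR OE and 43.5, 46.0 and 52.7 CPM in YAP OE (log2 fold change 0.056, standard error 0.0583, adjusted p = 0.762 by edgeR), and its groups overlap.

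The same subunits had small log2 fold changes in the overexpression. Atp5b held 2059, 1966 and 1986 CPM in CTR OE and 2012, 1956 and 2111 CPM in YAP OE (log2 fold change 0.016, standard error 0.0491, adjusted p = 0.94 by edgeR), and Atp5a1 held 1117, 1086 and 1088 CPM in CTR OE and 1057, 1034 and 1119 CPM in YAP OE (log2 fold change -0.036, standard error 0.0465, adjusted p = 0.822 by edgeR). Cox4i1 held 434, 417 and 429.8 CPM in CTR OE and 398, 393 and 451 CPM in YAP OE (log2 fold change -0.043, standard error 0.0518, adjusted p = 0.804 by edgeR). In all 3, YAP OE 3 was the highest YAP library. The others had log2 fold changes of -0.001 (Ndufs1), -0.03 (Ndufv1), -0.079 (Ndufs7), -0.028 (Sdha), -0.034 (Sdhb), 0 (Uqcrc1), -0.036 (Uqcrfs1) and 0.002 (Cox5a), none past the test. By complex, the median was -0.029 in I, -0.043 in II, -0.042 in III, -0.05 in IV and -0.061 in V.

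Most of the genes had a log2 fold change above 0 in the knockdown and below 0 in the overexpression. This held for 49 of 80 (61.3%), beside 32.1% of 14521 genes tested in both. The reverse order of signs held for 6 (7.5%), beside 28.8%. Opposite signs as such were thus common among all genes too. A test of the difference itself, overexpression minus knockdown in 1 edgeR fit over 12 libraries, called 12 of the 80 genes lower, beside 3.56% of 15049 genes, and 0 higher, beside 5.24%. The 12 were the 7 genes called in YAP KD together with Atp5k, Cox6c, Cox7b, Ndufa2 and Ndufa4. The difference was largest for Cox7a1 (-0.83, SE 0.142, adjusted p = 0.00165 in edgeR), whose overexpression groups overlap. Uqcr11 followed (-0.40, SE 0.0682, adjusted p = 0.00155 in edgeR), then Uqcrh (-0.36, SE 0.057, adjusted p = 0.000974) and Cox7a2 (-0.34, SE 0.0555, adjusted p = 0.0011). In these 3 and in Atp5l, Cox6c, Cox7b, Ndufa2 and Ndufa4, the YAP libraries lay above all controls in the knockdown and below all controls in the overexpression. Atp5j2, Atp5k and Ndufv3 had groups that overlap in the overexpression.

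The 5 genes called for the difference alone did not pass in either experiment. Ndufa2, an accessory subunit of complex I, held 34.6, 35.0 and 34.5 CPM in CTR KD and 40.9, 36.4 and 37.1 CPM in YAP KD in the knockdown and 36.8, 38.5 and 37.7 CPM in CTR OE and 34.4, 31.6 and 36.8 CPM in YAP OE in the overexpression. Its log2 fold changes were 0.13 and -0.13. Cox7b, an accessory subunit of complex IV, held 121, 118 and 126 CPM in CTR KD and 135, 128 and 135 CPM in YAP KD and 123, 128 and 124 CPM in CTR OE and 115, 115 and 118 CPM in YAP OE, with 0.13 and -0.11. Cox6c, of the same complex, had 0.16 and -0.07, Atp5k (ATP synthase subunit e) had 0.20 and -0.10, and Ndufa4 had 0.14 and -0.041. Across the 80 genes the Spearman correlation of the 2 log2 fold changes was -0.431, and it was -0.292 across all 14521 genes, where points of 1 experiment share the same 6 libraries.

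**Figure D4:**
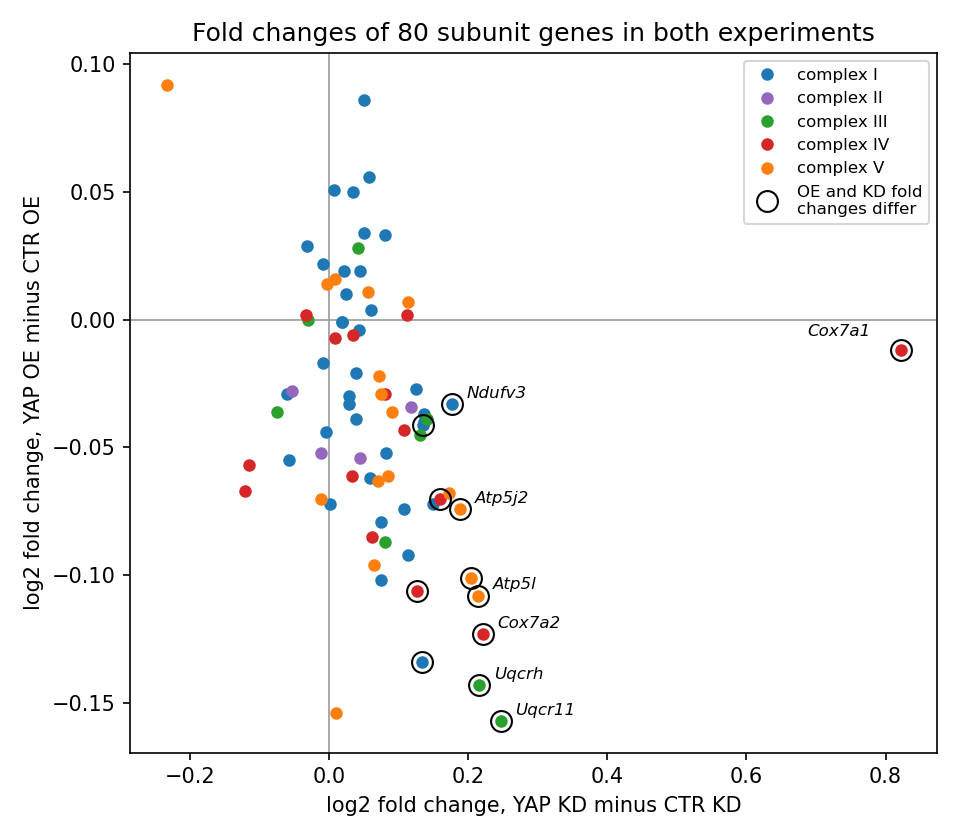
Log2 fold change in the knockdown (x axis) against that in the overexpression (y axis) for the 80 genes, colored by complex, with circles around the 12 genes whose fold changes differ in edgeR. All circled genes lie to the right of 0 and below 0, and Cox7a1 stands apart at 0.82 on the x axis. The axes have different scales.

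Transcript length moved with these differences. Effective length, the number of start positions a fragment can take in a transcript, was under 500 bases for 39 of the 80 genes. Of the 7 called in YAP KD, 6 were among these 39, and the seventh, Cox7a2, has 577.6 bases. The median log2 fold change in the knockdown was 0.081 for the 39 short genes and 0.044 for the 41 longer ones, and in the overexpression -0.052 and -0.028. Across the 80 genes the Spearman correlation of log2 fold change with log2 effective length was -0.427 for the knockdown and 0.352 for the overexpression, and across all genes tested it was -0.044 and 0.023. Among all genes of at least 10 CPM with an effective length under 500 bases, the median log2 fold change was 0.019 in the knockdown (278 genes) and -0.044 in the overexpression (279 genes, of which 21.9% were above 0). The median of the short subunit genes was thus higher than that of all short genes in the knockdown and slightly lower in the overexpression, and the differences between these medians were not tested. Length minus effective length, which follows the fragment size, was 168.7 to 185.3 bases over the libraries and highest in YAP KD 1. After a trend on length was removed from each library, 6 genes were called in the knockdown, with a median of 0.035, and 0 in the overexpression, with a median of -0.02. The count of genes called for the difference then went from 12 to 7.

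**Figure D5:**
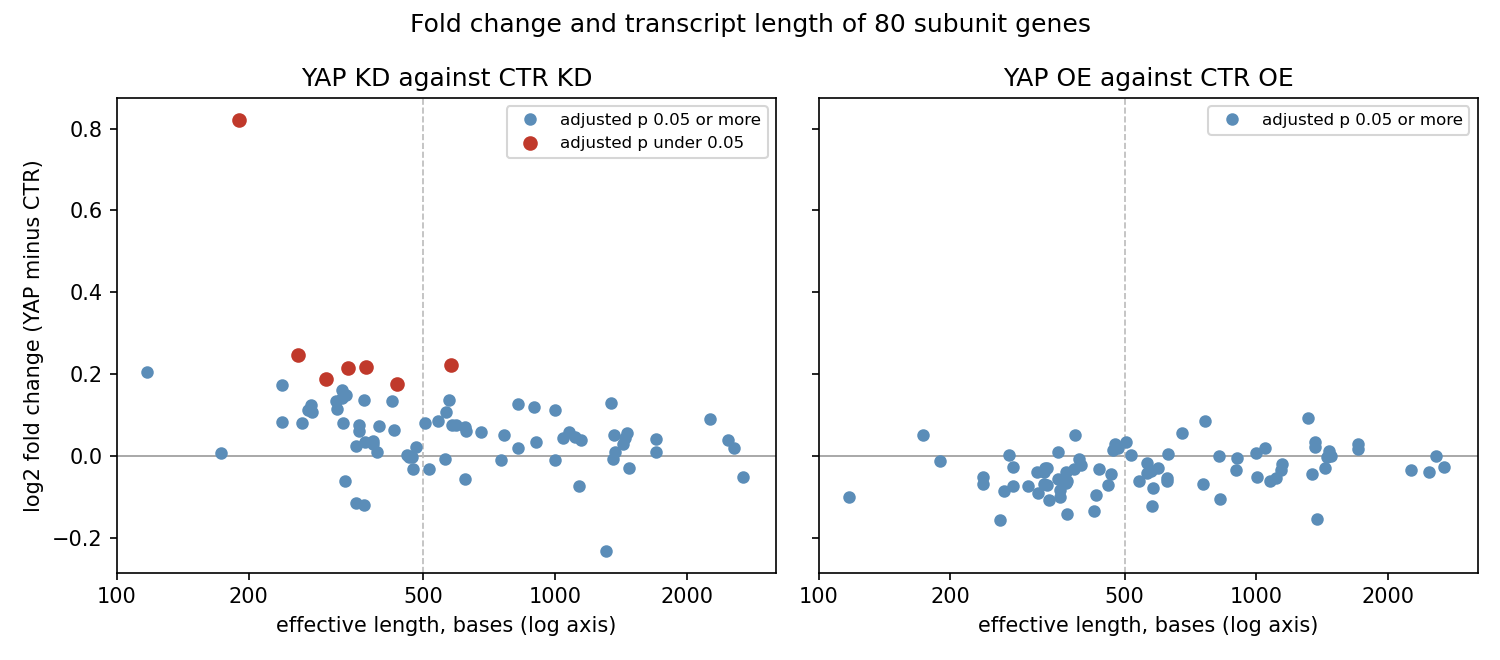
Log2 fold change (YAP minus CTR) of the 80 genes against effective transcript length in bases (log axis), in the knockdown (left) and the overexpression (right). The dashed line marks 500 bases, and red points are genes at an adjusted p under 0.05 in edgeR. On the left, 6 of the 7 red points lie left of the line, and on the right most short genes lie below 0.

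Isoforms of 1 subunit were set side by side. For subunit 6A, Cox6a1 held 129.7, 139 and 134 CPM in CTR KD and 142, 141 and 137 CPM in YAP KD in the knockdown (log2 fold change 0.061) and 136, 131 and 133 CPM in CTR OE and 125, 119.5 and 133 CPM in YAP OE in the overexpression (-0.085), while the muscle isoform Cox6a2 was almost without reads. For subunit 6B, Cox6b1 held 85.1, 84.7 and 83.7 CPM in CTR KD and 92.3, 88.3 and 87.6 CPM in YAP KD (log2 fold change 0.081), against -0.12 for Cox6b2. Cox6b2 nevertheless stood at 27.7 CPM per kb, beside 257 for Cox6b1. For subunit 7A, Cox7a2l, better known as a factor that joins complexes III and IV, held 138, 134 and 140.2 CPM in CTR KD and 143, 143 and 136 CPM in YAP KD (log2 fold change 0.034, standard error 0.041, adjusted p = 0.719 by edgeR) and 139.5, 138 and 142 CPM in CTR OE and 139.9, 133 and 145 CPM in YAP OE (log2 fold change -0.006). Its groups overlap in both experiments, unlike those of Cox7a1 and Cox7a2 in the knockdown. Cox7b2 held 0.592, 0.525 and 0.578 CPM in CTR KD and 0.402, 0.454 and 0.671 CPM in YAP KD and 0.561, 0.678 and 0.418 CPM in CTR OE and 0.467, 0.643 and 0.483 CPM in YAP OE, under 1 CPM in every library and with no call. Cox8a, the common isoform of subunit 8, held 171, 181 and 172 CPM in CTR KD and 181, 169 and 186 CPM in YAP KD (log2 fold change 0.033). Atp5g1, Atp5g2 and Atp5g3 encode the same mature c subunit of the ATP synthase ring, and had log2 fold changes of 0.07, -0.003 and 0.084 in the knockdown and -0.063, 0.014 and -0.061 in the overexpression. The only one with groups that do not overlap was Atp5g3 in the knockdown, with 164, 170.4 and 168 CPM in CTR KD and 185, 176 and 172 CPM in YAP KD. Ndufa4l2, the hypoxia-responsive paralog of Ndufa4 outside the rule, was called higher in both experiments (log2 fold change 2.21 and 1.77, edgeR adjusted p = 0.003 and 0.00259) at a level of at most 2.94 CPM, while Ndufa4, at 96 CPM or more in every library, had 0.14 and -0.041.

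Expected counts were not whole numbers for 8 of the 80 genes, which shows that RSEM divided reads between them and other genes. For 6 of them, 1 other gene held the complementary fraction in every library that could be compared (tolerance 0.02). These pairs were Ndufs5 with BC002163, Atp5f1 with Wdr77, Atp5j with Gabpa, Ndufa13 with Tssk6, Ndufs1 with Ino80dos and Uqcrc2 with Pdzd9. Cox7c had no single partner and Ndufa7 was not whole in 1 library only. Ndufs5, an accessory subunit of complex I, had a mean count of 37.3 against 1420 for BC002163, so only 2.56% of their sum was given to it, and its own level is uncertain. The sum of the pair went from 29.2 ± 0.795 to 32.02 ± 1.47 CPM in the knockdown (log2 fold change 0.14, standard error 0.0494, adjusted p = 0.158 by edgeR) and from 29.6 ± 0.843 to 27.7 ± 2.12 CPM in the overexpression (-0.097, standard error 0.0547, adjusted p = 0.491), with n = 3 each. In neither experiment did this pass the test. None of the 7 genes called in YAP KD was among these 8, and without the 8 genes the count of calls remained 7 and the median 0.059.

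Genes of and around OXPHOS outside the symbol rule showed few calls. Their shares are given beside those of all genes tested. These were 2.71% called higher, 2.78% called lower and 51.8% above 0 for the knockdown. For the overexpression they were 1.66% called higher and 51.3% below 0. Assembly factors of complex I (14 tested) and of complexes II to V (34 tested) had 0 calls in either experiment, with medians of -0.007 and 0.039 in the knockdown and 0.005 and -0.008 in the overexpression. In the knockdown 42.9 and 58.8% of them lay above 0. The 13 other components of the chain include subunits that the symbol rule missed, such as Cyc1 of complex III. Of the 13, 12 (92.3%) lay above 0 in the knockdown. Slc25a4, the ADP/ATP carrier of heart and muscle, was upregulated in YAP KD (7.69% of the list). It held 144, 134 and 139 CPM in CTR KD and 201, 195 and 193 CPM in YAP KD, for a log2 fold change of 0.50 (standard error 0.0422, adjusted p = 0.000227 by edgeR), and 156, 153 and 157 CPM in CTR OE and 141, 136 and 146 CPM in YAP OE in the overexpression (-0.14, standard error 0.0397, adjusted p = 0.109 by edgeR). Its YAP libraries lay above all controls in the knockdown and below all controls in the overexpression. Its paralog Slc25a5 held 620.3, 628 and 617 CPM in CTR KD and 702, 667 and 648 CPM in YAP KD in the knockdown, with 0.11 (standard error 0.0416, adjusted p = 0.163 by edgeR). Cyc1 and Cycs, cytochrome c1 and cytochrome c, had 0.02 and 0.11 in the knockdown, with no call.

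Of 14 citrate cycle enzymes, Idh2, the mitochondrial NADP-dependent isocitrate dehydrogenase, was downregulated in YAP KD. That is 7.14% of the list, of which 50% lay above 0. Idh2 held 128, 140.3 and 131 CPM in CTR KD and 108, 104 and 102 CPM in YAP KD, for a log2 fold change of -0.35 (standard error 0.0458, adjusted p = 0.00293 by edgeR), and the other 13 were not called. None of the 15 tested regulators of mitochondrial gene expression was called in either experiment, with 53.3% above 0 in the knockdown and 73.3% below 0 in the overexpression. Nrf1 had -0.082, Gabpa 0.048, Tfam, which packages and transcribes mitochondrial DNA, 0.11 and the coactivator Ppargc1b -0.23. Of 77 mitochondrial ribosomal proteins, 2 (2.6%) were called higher in YAP KD (Mrpl45 and Mrpl51, log2 fold changes 0.16 and 0.19), a share near that of all genes. Their log2 fold change was above 0 for 56 (72.7%) in the knockdown and below 0 for 53 (68.8%) in the overexpression, so the lean seen in the subunit genes was also present in this list. Of 89 cytosolic ribosomal protein genes, 2 (2.25%) were called higher and 1 (1.12%) lower in YAP KD, with a median of 0.012 and 64% above 0, and in the overexpression 1 (1.12%) was called higher and 64% lay below 0. The 13 subunits encoded by mitochondrial DNA, a list added after the values were seen, had 0 calls, with medians of 0.055 in the knockdown and 0 in the overexpression. Of them, 76.9% lay above 0 in YAP KD and 46.2% below 0 in YAP OE. Their share of counts ran from 1.55% in CTR KD 2 to 2.04% in CTR KD 3, so the controls alone spanned the range of all 12 libraries.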

How the data were processed

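Total RNA from 12 transfected ESC samples was sequenced on the Illumina Genome Analyzer platform, and the authors mapped reads with STAR to mm10 and quantified RefSeq transcripts with RSEM (versions not given in the sources used here). The deposited values per gene are RSEM expected counts, TPM, FPKM, length and effective length. Expected counts, which the authors did not normalize, were rounded to whole numbers and used for all tests. The authors' TPM and FPKM were not used. Effective length from the deposited files gave CPM per kilobase and the length classes.

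The 80 genes and all lists were chosen with earlier results of these data known. YAP was compared with CTR within each experiment (6 libraries) in edgeR 4.0.16 (R 4.3.3) with TMM factors, filterByExpr, glmQLFit and glmQLFTest, two-sided, with Benjamini-Hochberg adjustment over all genes kept and a threshold of 0.05. The difference between experiments was 1 contrast over 12 libraries. SE is the absolute log2 fold change over the root of F. P-values measure the spread between independent transfections. Members are not replicates, so medians and counts over them are given beside those over all genes, with no test. Genes named were those called, the 3 highest and 3 lowest log2 fold changes in each experiment with at least 50 counts, a set of catalytic and other defining subunits, isoforms, and genes with counts that are not whole; 1 subunit is not reported here. Fits were tested on simulated data. Of genes given a log2 change of 0.2, 12.1% were called in the knockdown design and 34% in the overexpression design. At a log2 change of 0.8 these were 85.7 and 86.6%. Alternatives used DESeq2 1.42.0, limma 3.58.1, other scaling, filters, a length trend, a replicate block, and libraries left out. Counts carry counting error as well as the spread between libraries.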

Additional observations from a re-analysis of the deposited data

Results flagged for a closer look

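For 12 of the 80 subunit genes the log2 fold change differed between overexpression and knockdown at an adjusted p under 0.05 in the edgeR fit over 12 libraries, in each case lower in the overexpression. Overexpression minus knockdown was -0.83 for Cox7a1, -0.40 for Uqcr11, -0.36 for Uqcrh, -0.34 for Cox7a2, -0.32 for Atp5l and -0.26 for Atp5j2. It was -0.31 for Atp5k, -0.27 for Ndufa2, -0.23 for Cox7b, -0.23 for Cox6c, -0.21 for Ndufv3 and -0.18 for Ndufa4. None of the 12 was called in the overexpression alone. The experiments differ in the agent (siRNA or plasmid) and in their controls as well as in the direction of YAP, and these cannot be told apart in the difference.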

How the results depend on the processing

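With the replicate number as a block, 1 gene instead of 7 was called in the knockdown, and 1 with the block and the length trend removed together. As a check of the pairing, deviations of same-numbered CTR and YAP libraries from their group means were correlated. The values were -0.293, -0.141 and -0.008 in the knockdown and 0.018, 0.047 and 0.024 in the overexpression. CTR OE 1 correlated at 0.022 with YAP OE 3, beside 0.018 with YAP OE 1. In the knockdown, libraries of different number gave -0.144 (CTR KD 2 with YAP KD 3) to 0.265 (CTR KD 2 with YAP KD 1). None of the same-numbered values there was above 0, which gives no sign of pairing by number. In the overexpression the correlations are too near 0 to decide whether same-numbered libraries were paired. The block changed no call in the overexpression. Leaving out 1 library at a time gave 1 to 7 calls in the knockdown. Among the genes of 500 bases or more, a division chosen after seeing the data, 1 was called. The 12 genes called for the difference became 7 with the length trend removed and 6 with block and length trend together, both also chosen after seeing the data, and 8 to 14 with 1 library left out. In the overexpression the count was 0 in every alternative. The median over the genes kept its sign in every alternative, from 0.034 to 0.068 in the knockdown and from -0.07 to -0.014 in the overexpression, and was 0.081 and -0.052 over the 39 genes under 500 bases alone, within 1 SD of the replicate medians (0.0292 and 0.0445). For single named genes, 1349 of 1471 recomputed values kept their direction and side of the threshold, 39 fell below it, 1 passed it (Ndufa4 in the knockdown, 0.13 in the fit over 12 libraries) and 82 changed sign without a call in either analysis or moved by more than the spread, and no called value reversed. Most named genes had no call to lose, and all 39 lost calls were those of called genes other than Cox7a1. With 3 libraries a group, a gene without a call may still differ by a small amount.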
